A study of Zea mays with 30 samples.

Results

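Glycolysis splits sugar to pyruvate, and ethanol fermentation regenerates the NAD+ that glycolysis needs when oxygen runs short. Aldolase cuts fructose bisphosphate, cytosolic glyceraldehyde-3-phosphate dehydrogenase (GAPC) makes NADH, enolase forms phosphoenolpyruvate, pyruvate decarboxylase turns pyruvate into acetaldehyde, and alcohol dehydrogenase reduces that to ethanol. In maize several of these enzymes were first described as anaerobic polypeptides, made in seedling roots deprived of oxygen. The genes treated here were those whose probes the annotation names gpc1, gpc2, gpc3 or gpc4 (GAPC), eno1 or eno2 (enolase), ald1 (aldolase), tpi with a number (triose phosphate isomerase), pdc with a number (pyruvate decarboxylase), and adh1 or adh2 (alcohol dehydrogenase). The search gave 11 genes on 90 spots, among 866 genes on 3845 spots that carry 1 gene name on the 3 cDNA chips. No spot was named gpc4 or tpi on any of the chips.

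RNA came from shoot apical meristems (SAMs) with their leaf founder cells, laser microdissected from maize seedlings at 2 weeks. The ns mutants (genotype ns1-R with ns2-R) were set against nonmutant siblings (Ns1/ns1-R with ns2-R) of a highly introgressed line, so both groups carry ns2-R. An ns pool and a nonmutant pool were hybridised together on each array, in 6 replicates on each of 3 chips (SAM 1.1, SAM 2.0, then SAM 3.0), with ns in Cy5 on 3 arrays and in Cy3 on the other 3. Which seedlings went into each pool, and whether a replicate number marks the same RNA on each chip, is not given in the sources used here. The study describes 6 biological replicates and gives the dyes of 6 pairs for each chip. The chips may thus repeat the same RNA, and they are not counted as independent. Since the RNA is from whole dissected domains, fewer cells of a type and less RNA per cell cannot be told apart.

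Across scans the median spot was 5.6 to 329 times its local background in Cy3 and 2.93 to 20.3 times in Cy5. The 329 is a single scan, the mid scan of replicate 1 on SAM 3.0. The low and high scans of that array gave 37.3 and 17.6 in Cy3. The labelled tissue was checked on its markers. Of 6 meristem marker genes, 4 were measured on each chip, among them the homeobox gene kn1. Their spots had a median percentile of 52.5 in ns and 53.8 in nonmutant SAMs on SAM 1.1. The median was 72.7 in ns and 69.5 in nonmutant SAMs on SAM 2.0, and 62.1 in ns and 60.4 in nonmutant SAMs on SAM 3.0. The meristem spots spread widely, with bd1 at 21.1 in ns and 20.7 in nonmutant SAMs on SAM 1.1. Of 8 leaf photosynthesis genes, 6, 7 and 5 were measured on the 3 chips in that order. Their spots had a median percentile of 30.6 to 34.9 in ns and 29.5 to 34.5 in nonmutant SAMs over the chips. These spots spread widely too, in nonmutant SAMs from 7.01 to 49.1, 6.93 to 90.9 and 7 to 64.1 on the 3 chips. The highest, an rca1 spot of SAM 2.0, was at 91.7 in ns and 90.9 in nonmutant SAMs. Ranks of different cDNAs depend on the spot too, so the lists were not tested against each other. The endosperm storage markers o2 and zp27 were at 41.4 and 12.9 in ns and 41.5 and 9.22 in nonmutant SAMs on SAM 1.1, and no root marker had a spot. None of the 6 meristem, 8 leaf and 2 endosperm marker genes passed the limma threshold described below on any chip. The 2 ns1 spots of SAM 3.0 gave a log2 ratio of ns over nonmutant of -0.09 ± 0.16 (SE, n = 6 arrays, limma adjusted p = 0.94), but they list the same cDNA and went opposite ways, at 0.21 ± 0.08 and -0.40 ± 0.25. No source used here says whether these cDNAs report the ns1-R lesion, so they check nothing about the labels.

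Most spots of the enzyme genes were brighter than the median spot of their chip, but the median spots of adh2, pdc1 and pdc3, and the eno2 spot of SAM 2.0, were below it in both kinds of SAM. Brightness was given as the percentile of a spot's background-corrected signal among all spots of its chip, averaged over 6 arrays. It depends on the cDNA and the spot as well as on the transcript, so it was not used to order genes. The study also amplified the dissected RNA with T7 RNA polymerase before labelling. What amplification did to the ranks was not tested. The ranking, and the shares of all spots given below, include every spot of a chip. The study counts only part of the spots of each chip as informative. How far the other spots lower the median of a chip, and so raise these percentiles, was not tested. On SAM 1.1 the median of the 44 spots was percentile 67.3 in ns and 68.4 in nonmutant SAMs, on SAM 2.0 the median of the 9 spots was 70.9 in ns and 70.4 in nonmutant SAMs, and on SAM 3.0 the median of the 37 spots was 73.6 in ns and 76.1 in nonmutant SAMs. In nonmutant SAMs 30, 6 and 27 spots lay above percentile 50 on the 3 chips in that order, and 8, 3 and 8 above percentile 90. The rank of single spots differed little between genotypes, by -6.7 to 2.3 percentile points on SAM 1.1, -5.5 to 0.9 on SAM 2.0 and -4.7 to 1.7 on SAM 3.0 (ns minus nonmutant).

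**Figure D1:**
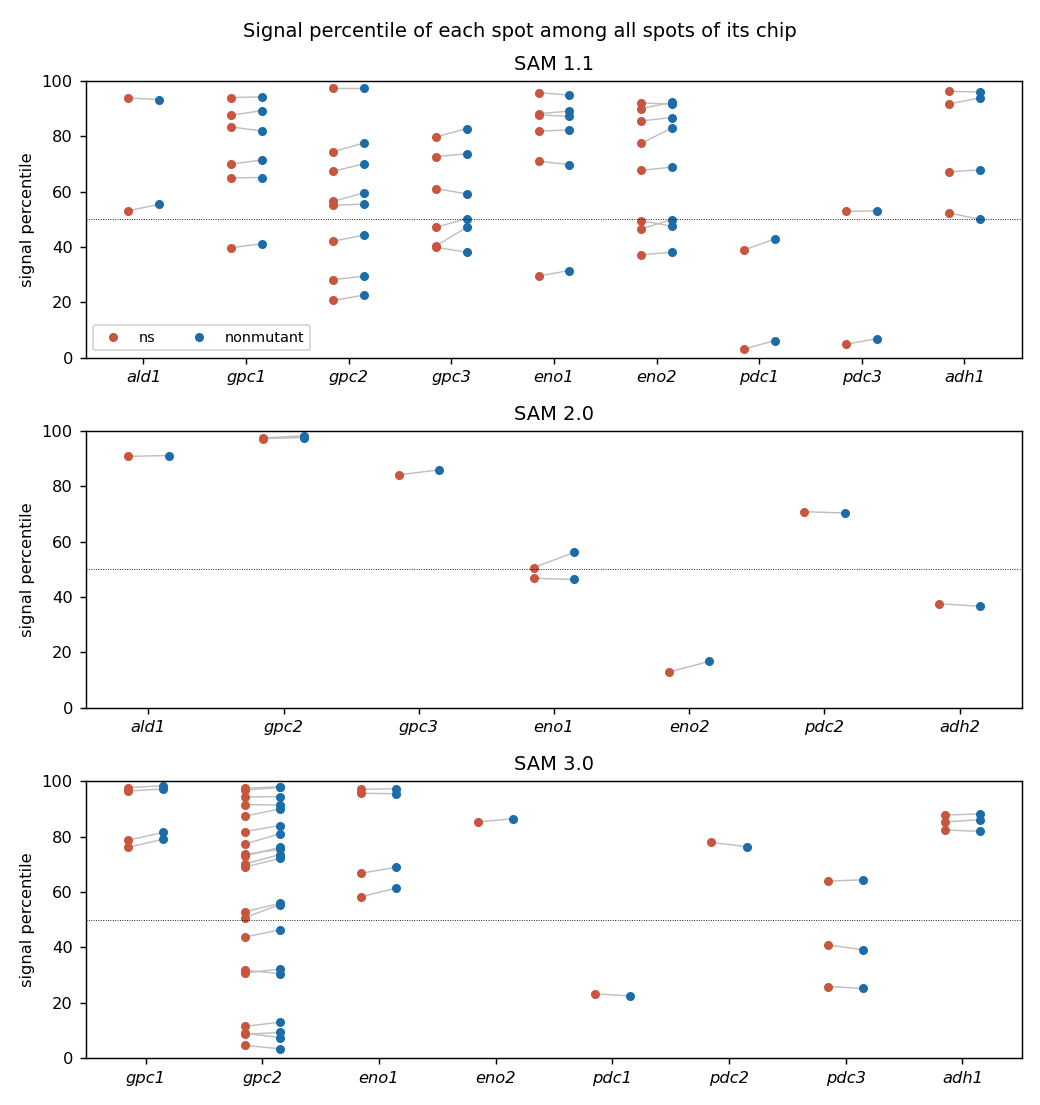
Signal percentile (vertical axis, 0 to 100, mean of 6 arrays) of each spot of the enzyme genes among all spots of its chip, with the ns value left of the nonmutant value of the same spot and a grey line joining them; the dotted line is percentile 50. Spots of a gene spread widely, as from 3.32 to 98.0 for gpc2 in nonmutant SAMs on SAM 3.0, while a spot kept nearly the same percentile in both genotypes.

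GAPC, the NADH-forming step, had spots near the top of each chip. The 20 gpc2 spots of SAM 3.0 ranged from percentile 4.53 to 97.5 in ns and 3.32 to 98.0 in nonmutant SAMs, and the 4 gpc1 spots from 76.1 to 97.7 in ns and 79.1 to 98.4 in nonmutant SAMs. Both gpc2 spots of SAM 2.0 were near the top, at 97.3 and 97.6 in ns and 97.7 and 98.3 in nonmutant SAMs. The 6 gpc3 spots of SAM 1.1 ran from 39.9 to 79.8 in ns and 38.1 to 82.8 in nonmutant SAMs. For enolase, which makes phosphoenolpyruvate, the 4 eno1 spots of SAM 3.0 lay between 58.3 and 97.1 in ns and between 61.4 and 97.3 in nonmutant SAMs. The 8 eno2 spots of SAM 1.1 lay between 37.2 and 92.1 in ns and between 38.1 and 92.3 in nonmutant SAMs. The ald1 spot of SAM 2.0, for aldolase, was at 90.9 in ns and 91.2 in nonmutant SAMs.

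For adh1, the alcohol dehydrogenase gene long used as a low-oxygen marker in maize, the 4 spots of SAM 1.1 ranked from 52.3 to 96.3 in ns and 50.0 to 96.0 in nonmutant SAMs, and the 3 spots of SAM 3.0 from 82.4 to 87.8 in ns and 81.9 to 88.2 in nonmutant SAMs. Its isoform adh2 had a single spot, on SAM 2.0, at 37.6 ± 6.66 in ns and 36.7 ± 5.75 in nonmutant SAMs (SD, n = 6 arrays). The 2 pdc1 spots of SAM 1.1 were at 3.12 and 38.9 in ns and 6.12 and 42.9 in nonmutant SAMs, and the pdc2 spot of SAM 3.0 was at 77.9 in ns and 76.4 in nonmutant SAMs. A pdc1 spot and a pdc3 spot of SAM 1.1 had signals over background of only 1.76 and 1.77 in ns and 1.89 and 1.72 in nonmutant SAMs, so their ratios rest on little signal. The dimmest gpc2 spot, 5340 of SAM 3.0, was at 1.78 in ns and 1.63 in nonmutant SAMs. For 15 other fermentation and low oxygen genes the median percentile was 35.3 to 39.0 in ns and 37.8 to 40.6 in nonmutant SAMs over the chips. For 9 other glycolysis genes it was 41.5 to 67.4 in ns and 40.8 to 66.6 in nonmutant SAMs. Both lists are broad. The first also holds phosphoenolpyruvate carboxylases (pep1, pep4, pep7), malate dehydrogenases and ppdk1, and pep1 and ppdk1 are also among the leaf markers. The second holds gpa1 and gpb1, listed as plastid forms of glyceraldehyde-3-phosphate dehydrogenase. The medians are thus not those of fermentation or glycolysis alone.

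The main comparison asked whether transcripts of these enzymes differed between ns and nonmutant SAMs. None of the 90 spots differed past a limma adjusted p of 0.05, and their smallest adjusted p on the 3 chips was 0.83, 0.729 and 0.879. Over all spots of the chips 0.0104% of spots passed on SAM 1.1, 0.0355% on SAM 2.0 and 0.0125% on SAM 3.0. With spots of the same gene averaged, 0.00556%, 0.0365% and 0.013% of the genes and unnamed spots passed on the 3 chips in that order, and none of the 24 gene values treated here did. Their 95% intervals all included 0, with bounds on the ratio between 0.584 and 1.27, so no gene was shown to differ, and changes inside those bounds remained possible.

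The ratios leaned to lower values in ns SAMs without passing the test. On SAM 1.1, 32 of 44 spots and 8 of 9 genes had a log2 ratio below 0, where 54.4% of all spots did. On SAM 2.0 it was 7 of 9 spots and 6 of 7 genes, beside 49.1% of all spots, and on SAM 3.0 27 of 37 spots and 5 of 8 genes, beside 50.4%. The median log2 ratio of the enzyme spots was -0.07 against -0.02 for all spots of SAM 1.1, -0.10 against 0.0037 for SAM 2.0, and -0.11 against -0.00097 for SAM 3.0. Of the other fermentation and low oxygen genes, 9 of 11, 6 of 13 and 10 of 12 were below 0 on the 3 chips in that order. For the other glycolysis genes it was 2 of 6, 2 of 6 and 5 of 6. A lean to lower values was thus not particular to the enzyme genes treated here. Spots of a gene, and genes on an array, share the same RNA pools and are not independent replicates, so these counts are a description.

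At an unadjusted p of 0.05, 7 of the 90 spots passed in limma. All 7 were lower in ns SAMs, but the direction of passing spots was not counted over all spots of the chips. The 7 were 2 of 44 on SAM 1.1 (4.55%, against 5.18% of all spots), 1 of 9 on SAM 2.0 (11.1%, against 6.48%), and 4 of 37 on SAM 3.0 (10.8%, against 5.19%). By the methods' t-test, an ordinary regression for each spot, 0 enzyme spots and 0 of all spots passed after Benjamini-Hochberg adjustment on each chip. At that unadjusted threshold 3, 0 and 6 enzyme spots passed on the 3 chips in that order. The share of all spots was not counted for this test, so these counts are a description. The spots that passed in limma on SAM 1.1 were 7202 of gpc3, with a log2 ratio of -0.34 ± 0.12, and 16593 of eno2, with -0.34 ± 0.13 (SE, n = 6 arrays). On SAM 2.0 it was spot 11632 of eno1, with -0.36 ± 0.15. This was also the only spot of the 90 with a dye difference past its own adjusted threshold, with Cy5 over Cy3 at 0.77 on the log2 scale (limma adjusted p = 0.00429). On SAM 3.0 all 4 were gpc2 spots (930, 2312, 10129 and 15712), with log2 ratios of -0.27 to -0.18. Spots 2312 and 10129 list the same cDNAs as spots 9339 and 6695, which did not pass, at 0.07 and -0.12 (limma p = 0.474 and 0.129). Spot 2312 was also saturated on 1 array. With genes averaged, 0 of the 24 values passed an unadjusted 0.05, where 5.14%, 6.44% and 5.13% of genes and unnamed spots did on the 3 chips in that order.

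**Figure D2:**
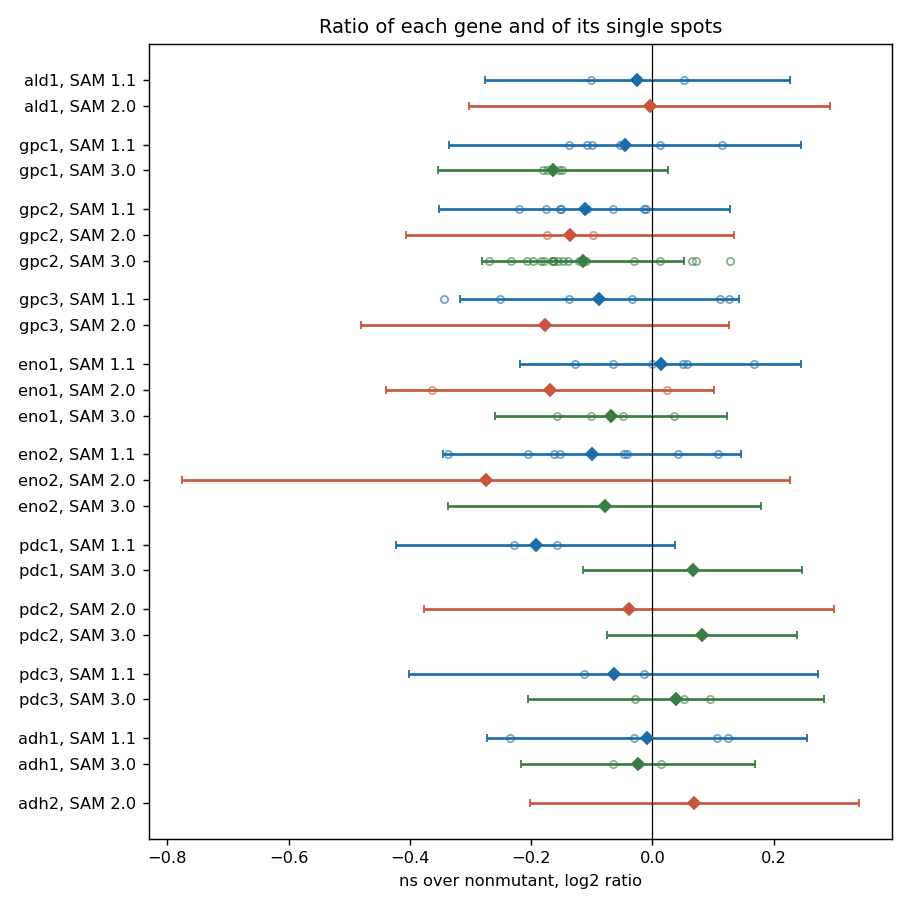
Log2 ratio of ns over nonmutant signal (horizontal axis) for each enzyme gene and chip: diamonds are the gene value with its 95% interval from limma (6 arrays), open circles its single spots. Blue is SAM 1.1, red SAM 2.0 and green SAM 3.0; every interval crosses 0, and 19 of the 24 gene values lie below it.

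Of the GAPC genes, gpc2 had the most spots, 30 in all, and 26 of them had a ratio below 1. Its gene value was close to the same on each chip, at -0.11 ± 0.11 for SAM 1.1, -0.14 ± 0.13 for SAM 2.0 and -0.12 ± 0.08 for SAM 3.0 (log2, SE, n = 6 arrays each). The limma adjusted p was 0.861, 0.863 and 0.885. Since the chips may repeat the same RNA, this likeness is not counted as replication. On single arrays of SAM 3.0, with the mean dye difference removed, the log2 ratio of gpc2 was 0.01, -0.16, -0.24, -0.20, 0.01 and -0.12 in replicates 1 to 6. It lay below 0 on 4 of the 6 arrays and just above 0 on the others. Single-array values given further on have this dye difference removed too, unless called measured. On SAM 1.1 the 6 values were -0.09, -0.16, -0.13, -0.32, -0.12 and 0.15, and on SAM 2.0 they were 0.02, -0.11, -0.29, -0.39, -0.14 and 0.09. Replicate 4 was the lowest array on SAM 1.1 and SAM 2.0, and replicate 3 on SAM 3.0.

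The gpc2 spots did not all behave alike on SAM 3.0. The 16 with a ratio below 1 covered percentiles 12.9 to 98.0 in nonmutant SAMs, and the 4 with a ratio above 1 were dim, at percentiles 3.32 to 30.5. Some spots carry the same cDNA, which gives a technical check. In 5 pairs of gpc2 spots on SAM 3.0 that list the same cDNA, the log2 ratios differed by 0.084 to 0.276, and in 3 of the pairs they had opposite signs. Brightness differed too: spots 2312 and 9339 list 1 cDNA and ranked at percentiles 96.8 and 31.7 in ns, and 97.8 and 30.5 in nonmutant SAMs. Their log2 ratios were -0.20 ± 0.07 and 0.07 ± 0.10. In 3 of the 5 pairs a spot was saturated on 1 array, and the other pairs included the gpc2 spots 5336 and 5340, which were little above background, so these differences also hold the limits of very bright and very dim spots.

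The copy gpc1 had the smallest p of the 24 gene values, on SAM 3.0, where its 4 spots had log2 ratios between -0.18 and -0.15. The gene value was -0.16 ± 0.09 (95% interval -0.35 to 0.03, limma p = 0.0836, adjusted p = 0.885), and single arrays gave 0.10, -0.10, -0.36, -0.37, -0.03 and -0.23 in replicates 1 to 6. Thus 5 of 6 arrays were below 0. With arrays weighted by quality the value was -0.06, and 1 gpc1 spot and 3 gpc2 spots of this chip were saturated on at least 1 array. On SAM 1.1 gpc1 was at -0.05 ± 0.13, with spots from -0.14 to 0.12. The third copy, gpc3, which low oxygen is known to induce in maize seedlings, was at -0.09 ± 0.10 on SAM 1.1 and -0.18 ± 0.14 on SAM 2.0. Its 6 spots on SAM 1.1 were far apart, from -0.34 to 0.13.

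Of the enolase genes, eno1 had 12 spots. SAM 1.1 gave it a log2 ratio of 0.01 ± 0.11, SAM 2.0 one of -0.17 ± 0.13 and SAM 3.0 one of -0.07 ± 0.09 (SE, n = 6 arrays each). On single arrays of SAM 1.1, with the mean dye difference removed, it was 0.15, -0.04, -0.17, 0.00061, 0.07 and 0.08 in replicates 1 to 6. These were above 0 on 4 of 6 arrays, and on 3 of 6 as measured. On SAM 2.0 the values were -0.06, -0.14, -0.21, -0.44, -0.25 and 0.07, below 0 on 5 of 6. As measured, with a dye difference of 0.41 left in, only 3 of 6 were below 0. On SAM 3.0 they were 0.16, 0.01, -0.37, 0.01, -0.23 and 0.01, above 0 on 4 of 6, but on 2 of 6 as measured. No eno1 value passed the test, and a difference between chips was not tested. The log2 ratio of eno2 was below 0 on each chip, -0.10 ± 0.11 on SAM 1.1, then -0.27 ± 0.24 on SAM 2.0, then -0.08 ± 0.12 on SAM 3.0. The single eno2 spot of SAM 2.0 was dim, with ns at 1.78 and nonmutant at 2.11 times the background, and on 1 array a channel was not above background. Its arrays ran from -1.86 in replicate 2 to 0.61 in replicate 4, and with plain subtraction of the background its log2 ratio was -1.44. Aldolase, ald1, was at -0.03 ± 0.11 on SAM 1.1 and -0.0047 ± 0.14 on SAM 2.0.

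The pyruvate decarboxylase genes had values on both sides of 0. On SAM 1.1 pdc1 was lower in ns on 6 of 6 arrays, at -0.26, -0.15, -0.03, -0.29, -0.29 and -0.14 in replicates 1 to 6, with a gene value of -0.19 ± 0.10 (95% interval -0.42 to 0.04, limma p = 0.0928, adjusted p = 0.83). On SAM 3.0 the same gene was at 0.07 ± 0.08, higher in ns on 4 of 6 arrays. A cDNA of pdc1 that is spotted on both chips ranked at percentile 3.12 in ns and 6.12 in nonmutant SAMs on SAM 1.1, with a log2 ratio of -0.16 ± 0.11. On SAM 3.0 it ranked at 23.2 in ns and 22.4 in nonmutant SAMs, with 0.07 ± 0.08. The other pdc1 spot of SAM 1.1, 17458, had a log2 ratio of -0.23 ± 0.11 and was higher in ns on 0 of 6 arrays. Its cDNA is not among the pdc1 spots of SAM 3.0, so its low ratio was not measured again there. For the shared cDNA the low ratio of SAM 1.1 was not seen on SAM 3.0, and the difference between the chips was not tested. The pdc2 value of SAM 3.0 was 0.08 ± 0.07, with all 6 arrays above 0 once the dye difference of 0.15 was removed, but only 3 of 6 as measured, and on SAM 2.0 it was -0.04 ± 0.16. For pdc3 it was -0.06 ± 0.15 on SAM 1.1 and 0.04 ± 0.11 on SAM 3.0. Of the pdc3 cDNAs 2 were on both chips. One had log2 ratios of -0.01 ± 0.22 on SAM 1.1 and -0.03 ± 0.16 on SAM 3.0. The other, whose SAM 1.1 spot was the pdc3 spot with little signal named above, had -0.11 ± 0.11 on SAM 1.1 and 0.05 ± 0.08 on SAM 3.0.

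Alcohol dehydrogenase, the last step of ethanol fermentation, was near a ratio of 1. The log2 ratio of adh1 was -0.0088 ± 0.12 on SAM 1.1 (95% interval -0.27 to 0.26) and -0.02 ± 0.09 on SAM 3.0 (95% interval -0.22 to 0.17), with limma adjusted p of 0.99 and 0.977. In replicates 1 to 6 of SAM 1.1 it was 0.23, 0.10, -0.38, -0.22, 0.13 and 0.09, and of SAM 3.0 0.15, 0.11, -0.21, -0.32, 0.14 and -0.01. Replicates 3 and 4 were the lowest arrays on both chips, and replicates 1, 2 and 5 were above 0 on both. The adh2 spot gave 0.29, 0.26, -0.08, -0.15, 0.0058 and 0.10 on the arrays of SAM 2.0, with a log2 ratio of 0.07 ± 0.13 (limma adjusted p = 0.95). The isoforms adh1 and adh2 were on no common chip, so they were not compared.

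On some arrays most of the enzyme genes lay on the same side of 0. In replicate 3 all 9 genes of SAM 1.1, all 7 of SAM 2.0 and 7 of 8 of SAM 3.0 were below 0, with medians of -0.18, -0.26 and -0.30 on the log2 scale. Of all named genes 55.4%, 50.4% and 56.9% were below 0 on those arrays. Of the other fermentation and low oxygen genes 9 of 11, 5 of 13 and 8 of 12 were below 0 there. Of the other glycolysis genes it was 2 of 6, 5 of 6 and 4 of 6. The ns RNA of replicate 3 was in Cy3 on SAM 1.1 and SAM 3.0 and in Cy5 on SAM 2.0. In replicate 1 of SAM 3.0 all 8 genes were above 0, with a median of 0.14, where 48.0% of named genes were below 0, but in replicate 1 of SAM 1.1 and SAM 2.0 the genes were split, with 4 of 9 and 4 of 7 below 0. In replicate 4, 8 of 9 genes were below 0 on SAM 1.1, 4 of 7 on SAM 2.0 and 6 of 8 on SAM 3.0, beside 55.4%, 54.1% and 58.9% of all named genes. There 9 of 11, 11 of 13 and 9 of 12 of the other fermentation and low oxygen genes were below 0. For the other glycolysis genes it was 1 of 6, 4 of 6 and 4 of 6. Such arrays were thus not particular to the enzyme genes treated here. The array medians of the enzyme genes thus ran from -0.28 to 0.15 on SAM 1.1, -0.26 to 0.07 on SAM 2.0 and -0.30 to 0.14 on SAM 3.0. These are values of single arrays, seen before they were described, and carry no test.

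**Figure D3:**
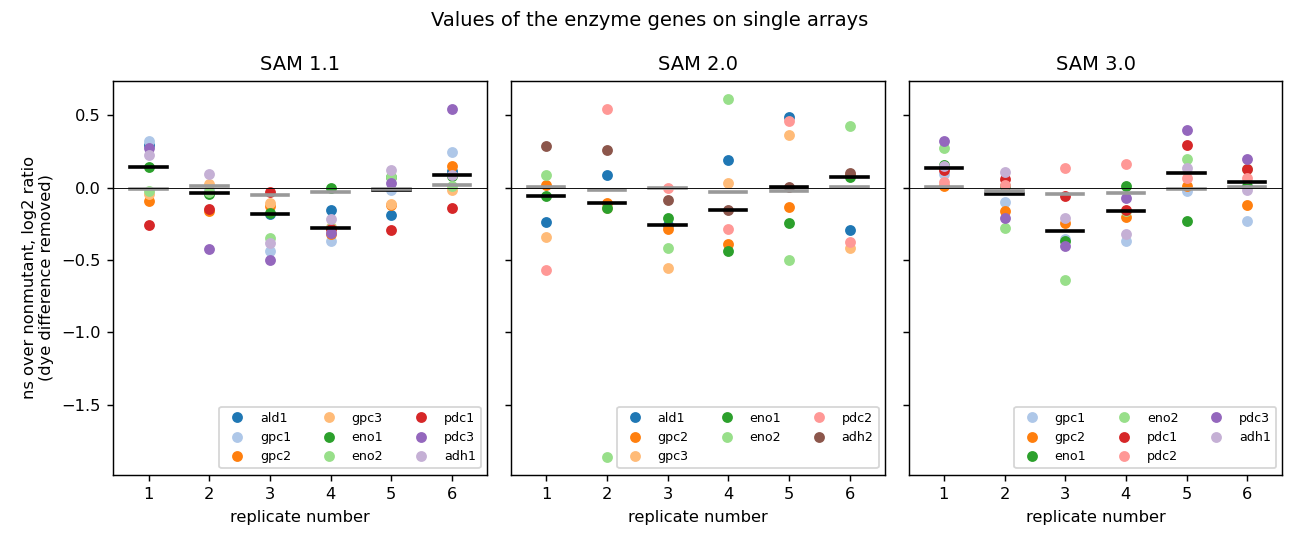
Log2 ratio of ns over nonmutant signal with the mean dye difference removed (vertical axis) on each of the 6 arrays of a chip (horizontal axis, replicate number), a point for each enzyme gene. Black bars are the median of the enzyme genes and grey bars that of all named genes; replicate 3 has the points of all or nearly all genes below 0 on each chip.

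Isoforms of an enzyme were compared on the same arrays, where both see the same RNA. None of 12 pairs was shown to differ (adjusted p = 1 for each pair, exact two-sided permutation test over 20 dye assignments), and with 6 arrays the smallest p that this test allows is 0.1. The narrowest pairs bound the difference best. On SAM 1.1 gpc2 minus gpc3 was -0.02 (95% interval -0.17 to 0.12, exact p = 0.7), and on SAM 3.0 gpc1 minus gpc2 was -0.05 (-0.18 to 0.08, exact p = 0.3). On SAM 1.1 eno1 was above eno2 by 0.11 (-0.03 to 0.26, exact p = 0.2), and on SAM 3.0 by 0.01 (-0.35 to 0.37, exact p = 0.8). On SAM 2.0, where eno2 was the dim spot above, the interval for the same pair was -1.06 to 1.27. The pdc pairs of SAM 3.0 lay between -0.02 and 0.04, with intervals from -0.39 to 0.48, and pdc1 minus pdc3 on SAM 1.1 was -0.13 (-0.71 to 0.46, exact p = 0.5). The GAPC genes are close copies of each other, as are the enolase genes, and long cDNA probes can bind transcripts of more than 1 copy. How far the spots tell the copies apart was not tested.

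**Figure D4:**
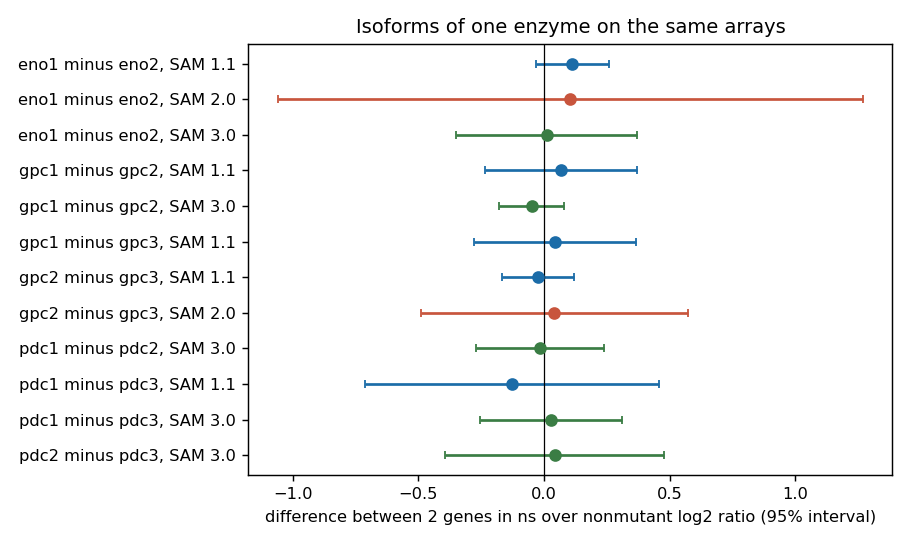
Difference between 2 genes of an enzyme in log2 ratio of ns over nonmutant (horizontal axis), with its 95% interval from 6 arrays. Blue is SAM 1.1, red SAM 2.0 and green SAM 3.0; all 12 intervals include 0, and the widest is that of eno1 minus eno2 on SAM 2.0.

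In part of the enzyme spots the dye term was larger than the genotype term. Its size exceeded that of the ns ratio in 29 of 44 spots on SAM 1.1, 5 of 9 on SAM 2.0 and 16 of 37 on SAM 3.0. The share of all spots was not counted, so this is a description and does not set the enzyme spots apart. Where the dye term was large, measured ratios of single arrays, with the dye difference left in, depended on which dye carried the ns RNA. For gpc3 on SAM 1.1 they were -0.39, -0.45 and -0.46 on the 3 arrays with ns in Cy3, and 0.37, 0.07 and 0.33 on the 3 with ns in Cy5. The balanced swap cancels this in the gene value.

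Other genes of the pathway were counted in the same fit. They were listed by gene name, in the broad lists described above. The annotation used here does not give the enzyme of pk3 and pk4, counted with the glycolysis genes as pyruvate kinases. A gene counted as pdh2 also carries the name pgd2. Of 9 other glycolysis genes, measured as 6 genes on each chip, 0 passed the adjusted threshold in either direction, and their median log2 ratio on the 3 chips was 0.04, 0.01 and -0.08, where all genes and unnamed spots had -0.01, 0.0038 and -0.00015. Their largest values were -0.19 ± 0.07 for frk1, a fructokinase that feeds fructose into glycolysis, on SAM 3.0, 0.11 ± 0.13 for gpn1 on SAM 2.0, and 0.11 ± 0.15 for frk1 on SAM 2.0. Of 15 other fermentation and low oxygen genes, measured as 11, 13 and 12 genes on the 3 chips, 0 passed in either direction. Their medians were -0.09, 0.03 and -0.08. The largest were 0.28 ± 0.14 on SAM 2.0 for a gene listed both as pdk1 and as ppdk1, the pyruvate phosphate dikinase of C4 photosynthesis, 0.23 ± 0.13 for pep4 on SAM 2.0, and -0.23 ± 0.09 on SAM 3.0 for another gene with the synonym pdk1. By limma at an unadjusted 0.05, 1 of 6 glycolysis genes (frk1) and 1 of 12 fermentation genes (that second pdk1) passed on SAM 3.0, both lower in ns SAMs. Of all genes and unnamed spots of that chip 5.13% passed. On SAM 1.1 and SAM 2.0 0 genes of either list passed, where 5.14% and 6.44% of genes and unnamed spots did. With so few genes these counts are a description.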

How the data were processed

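The authors scanned each array and deposited spot intensities of both channels, with local backgrounds, and natural log signals that were background-corrected, LOWESS-normalized and centred on the median. The deposited series tables repeat the natural log ratios. SAM 3.0 arrays were deposited as 3 scans each; scans of 1 replicate correlated at 0.971 to 0.998 and those of different replicates at 0.904 to 0.972, so the 3 scans that share a replicate number were averaged to 1 array, although these ranges overlap at 0.971 to 0.972.

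From mean spot intensities and median backgrounds, normexp correction (offset 50) and loess (span 0.3) gave log2 ratios in limma 3.58.1 under R 4.3.3. A dye intercept and an ns effect were fitted to 6 arrays of a chip, the regression of the study's methods. Moderation across spots and Benjamini-Hochberg adjustment were used here in place of the ordinary regression and q-values of the study, with adjustment over all spots of the chip (threshold 0.05), or over genes and unnamed spots after averaging spots of 1 gene. The residual degrees of freedom were 4 before moderation. Isoforms were compared by an exact permutation test over 20 dye assignments, adjusted over 12 pairs. The number of arrays limits the precision; p-values measure the spread between these pools.

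Probes were named by the platform annotation and RefSeq gene symbols (assembly Zm-B73-REFERENCE-NAM-5.0). Coordinates were not used, since no build is named for the cDNA chips, and no cDNA sequences were used here. The genes and lists were chosen with earlier results of these data known. All member genes were named; single-array values were given for the 2 genes with most spots, for adh1 and adh2 and for the 3 smallest p, and those of gpc3 and pdc2 and the extremes of eno2 were chosen after their values were seen. Other pathway genes were named only where among the 3 largest ratios of their list. The alternatives tried were background correction, normalization, the authors' values, array weights, single scans, spot filters, tests, replicates left out and no replicate block. Mean backgrounds and median signals were added after the data were seen.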

Additional observations from a re-analysis of the deposited data

How the results depend on the processing

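No enzyme spot passed the adjusted threshold under any of the settings run: 0 spots on each chip with the other background corrections, median centring, the authors' normalized values, array weights, single scans, a filter on dim spots, no dye term, the methods' t-test, adjustment over all chips together, each replicate left out, and no replicate block, where the 2 channels of an array were not paired. Without replicate 1 of SAM 1.1, 405 spots of that chip passed, and 0 of the 44 enzyme spots did. The 405 are a small share of the chip, so this does not set the enzyme genes apart from other spots. In that fit 8 enzyme spots passed the unadjusted threshold, against 2 in the main fit. The share of all spots passing it was not counted for that fit. The log2 ratio of gpc2 stayed below 0 on each chip under every setting run, as did those of gpc3 on its 2 chips, of gpc1 on SAM 3.0, of pdc1 and eno2 on SAM 1.1 and of eno1 on SAM 2.0. Those of adh2 and of pdc2 on SAM 3.0 stayed above 0.

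No value that changed sign was called before or after, and the cause was not tested. With median centring without loess the log2 ratio was 0.0187 for adh1 and 0.00575 for ald1 on SAM 1.1, 0.0365 for ald1 on SAM 2.0, and 0.0216 for pdc1 minus pdc2 on SAM 3.0. With array weights it was 0.0362 for adh1 on SAM 1.1, and 0.0482 for adh1, 0.0467 for eno1 and 0.0178 for eno2 on SAM 3.0. Without background correction eno1 minus eno2 on SAM 2.0 was -0.102. With median signals ald1 on SAM 2.0 was 0.00622 and eno1 minus eno2 on SAM 3.0 was -0.0202. On SAM 3.0 the low scan alone gave -0.00967 for pdc1 and -0.054 for pdc1 minus pdc3, the mid scan alone -0.0768 for eno1 minus eno2, 0.0981 for pdc1 minus pdc2 and -0.0557 for pdc2 minus pdc3, and the high scan alone 0.00793 for gpc1 minus gpc2.

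With each replicate left out in turn, gpc2 ran from -0.177 to -0.0596 on SAM 1.1 and -0.192 to -0.0724 on SAM 2.0, gpc3 from -0.117 to -0.0421 on SAM 1.1 and -0.312 to -0.0825 on SAM 2.0, eno2 on SAM 1.1 from -0.143 to -0.0365, eno1 on SAM 2.0 from -0.23 to -0.103, adh2 from 0.015 to 0.124 and pdc1 on SAM 3.0 from 0.00865 to 0.122, without a change of sign. Other single genes of SAM 1.1 ran from -0.0683 to 0.0841 for adh1, -0.105 to 0.0151 for ald1, -0.019 to 0.0607 for eno1, -0.136 to 0.0535 for gpc1 and -0.216 to 0.0453 for pdc3. On SAM 2.0 they ran from -0.127 to 0.0677 for ald1, -0.496 to 0.123 for eno2 (0.123 without replicate 2) and -0.184 to 0.0948 for pdc2. On SAM 3.0 they ran from -0.0671 to 0.0496 for adh1, -0.124 to 0.00719 for eno1, -0.167 to 0.0616 for eno2 and -0.0508 to 0.15 for pdc3. Differences between isoforms on SAM 1.1 ran from -0.0188 to 0.162 for gpc1 minus gpc2, -0.0373 to 0.137 for gpc1 minus gpc3, -0.0713 to 0.0175 for gpc2 minus gpc3 and -0.279 to 0.0115 for pdc1 minus pdc3. On SAM 2.0 they ran from -0.299 to 0.394 for eno1 minus eno2 and -0.0759 to 0.176 for gpc2 minus gpc3, and on SAM 3.0 from -0.0593 to 0.122 for eno1 minus eno2, -0.0771 to 0.0588 for pdc1 minus pdc2, -0.0536 to 0.0833 for pdc1 minus pdc3 and -0.0812 to 0.137 for pdc2 minus pdc3.

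Signal percentiles moved by less than their spread between arrays without background correction and with each scan of SAM 3.0 alone. With the filter on dim spots eno2 on SAM 2.0 and pdc1 on SAM 3.0 had no value. Signal over background limits the dim spots, among them those of eno2 on SAM 2.0, 1 each of pdc1 and pdc3 on SAM 1.1, and gpc2 spots such as 5340 on SAM 3.0.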
